A study of Mus musculus with 11 samples.

Results

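The genes described here are 7 mouse genes, of which Cybb, Cyba, Ncf1, Ncf4, Rac2 and Hvcn1 serve the superoxide-producing NADPH oxidase of phagocytes and Nox4 belongs to a related oxidase. They were chosen by name, for what their proteins do, with earlier results of these data known. They are 7 of the 32285 genes counted. All 7 were detected. Droplet-based 3' single-cell RNA sequencing had been run on the right brain of 11 mice, 1 library per mouse, to ask how loss of Lrg1, a secreted leucine-rich glycoprotein, changes the brain after transient ischemia. The sham + WT group held 3 wild-type mice that had sham surgery, the sham + Lrg1-/- group 3 Lrg1 knockout mice that had sham surgery, the MCAO/R + WT group 2 wild-type mice after middle cerebral artery occlusion and reperfusion, and the MCAO/R + Lrg1-/- group 3 knockout mice after that operation. Per the study's methods, the wild-type mice were male C57BL/6 of 8 to 10 weeks, and the knockouts carried a conventional deletion in every cell on a C57BL/6N background, were backcrossed for 4 generations and were aged 3 months. The same methods describe 1 h of occlusion, name a shorter one as well, and list several reperfusion times without saying which the sequenced mice had, while the discussion speaks of brain tissue at 1 h. The tissue went through warm enzymatic digestion and red cell lysis. The methods give no substrain for the wild-type mice, and for the knockouts they name C57BL/6J as well as C57BL/6N. Genotype therefore came together with age and supplier and may have come together with substrain. These cannot be told apart in any comparison of genotypes below.

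The oxidase carries electrons from NADPH across a membrane to oxygen, which makes superoxide inside a phagosome or outside the cell. Cybb encodes gp91phox (NOX2), the subunit that moves the electrons, and Cyba encodes p22phox, which holds it stable in the membrane. In a resting phagocyte the proteins p47phox (Ncf1) and p40phox (Ncf4) wait in the cytosol, and together with the GTPase Rac2 they move to the membrane when the cell is stimulated. Hvcn1 encodes a voltage-gated proton channel that carries out the charge left behind, and Nox4 encodes a related catalytic subunit that also pairs with p22phox but needs none of the cytosolic proteins. Microglia and infiltrating macrophages are the main carriers of NOX2 in the injured brain.

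On the GRCm38 assembly, which the study's mm10 build shares, Cybb spans bases 9435252 to 9487771 of chromosome X on the minus strand, and it is the only member on a sex chromosome. Cyba lies on chromosome 8 (122424776 to 122432930, minus strand). Chromosome 5 carries Ncf1 (134220053 to 134229625, minus strand) and Hvcn1 (122206804 to 122242297, plus strand). Chromosome 15 carries Ncf4 (78244801 to 78262580, plus strand) and Rac2 (78559167 to 78572783, minus strand), which are neighbours within a megabase. Nox4 is on chromosome 7 (87246096 to 87398710, plus strand). Ncf1 overlaps Gtf2ird2 and Hvcn1 overlaps Tctn1, both on the opposite strand and both counted separately, and Cyba overlaps the protein-coding Gm20388 on the opposite strand, which was not analysed here.

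The start regions of the NOX2 and NOX4 genes are shown because these catalytic subunits had different distributions over cell types. Each is a window of 300 bases, from 250 before to 50 after the RefSeq transcription start on GRCm38.p6, read 5′ to 3′ on the strand of the gene. Capitals mark GAGGAA, a core that the myeloid factor PU.1 is known to bind, or its reverse complement TTCCTC. The Cybb window is chrX:9469275-9469574 on the minus strand and the Nox4 window is chr7:87246399-87246698 on the plus strand.
Cybb: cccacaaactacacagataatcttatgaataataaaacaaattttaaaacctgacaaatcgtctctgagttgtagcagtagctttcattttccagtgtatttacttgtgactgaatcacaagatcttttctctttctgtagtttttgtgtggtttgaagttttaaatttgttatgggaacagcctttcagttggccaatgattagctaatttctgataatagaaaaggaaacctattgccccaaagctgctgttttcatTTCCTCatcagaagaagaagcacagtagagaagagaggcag
Nox4: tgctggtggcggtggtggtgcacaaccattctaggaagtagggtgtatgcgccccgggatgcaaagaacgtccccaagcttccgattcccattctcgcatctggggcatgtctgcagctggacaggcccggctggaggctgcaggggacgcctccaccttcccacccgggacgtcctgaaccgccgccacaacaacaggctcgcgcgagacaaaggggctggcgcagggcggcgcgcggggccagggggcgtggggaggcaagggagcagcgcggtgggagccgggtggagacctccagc
The Cybb window held 1 match, on the opposite strand and starting at base 10 after the start, and the Nox4 window held none. The windows of Cyba and Ncf1 held none either. Of 32851 RefSeq start windows of this length, 9289 (28.28%) held at least 1 match, so a match in 1 of the 4 windows examined is a description of these letters only.

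The 11 libraries held 37159497 to 171813031 UMIs, that is, counts of distinct RNA molecules. Of 155804 barcodes, 124491 were kept as cells, and 99964 of these were named after the cell type whose marker genes their cluster carried, so that "microglia" below means microglia-like cells. The other 24527 cells stayed unnamed, 15898 of them from MCAO/R + Lrg1-/- replicate 5. Among their clusters, numbers 23 and 24 (6237 and 6152 cells) scored highest for neutrophil markers. Numbers 28, 29 and 32 (1597, 1025 and 481 cells) scored highest for microglial markers, and 987 cells of number 29 were from sham + Lrg1-/-. Pairs of libraries shared at most 146 barcodes, and no pair shared more than 1.146% of the barcodes of its smaller library. Lrg1 itself had 180 to 648 UMIs in the sham + WT libraries and 15235 to 16764 in the MCAO/R + WT libraries, against 0 or 1 in each of the 6 knockout libraries. MCAO/R + Lrg1-/- replicates 1 and 2 had Xist at depth-normalized counts (CPM) of 356.6 and 468.5 and Ddx3y at 0.3639 and 0.4584, whereas the other 9 libraries had Xist at or below 1.186 and Ddx3y at or above 104.4. Xist is made from an inactive X chromosome and Ddx3y is on the Y, the methods call the wild-type mice male and give no sex for the knockouts, and the changes of members called with these 2 libraries were therefore also tested without them, which leaves 1 MCAO/R + Lrg1-/- library that is assumed to vary like the other groups. The knockout libraries also carried more transcripts of other cells inside each cell type. Summed over 5 red cell genes, haemoglobin transcripts and Alas2 reached 8878 to 30790 CPM in microglia of the 6 knockout libraries and 15.46 to 21.37 in those of the 5 wild-type libraries, and 4 choroid plexus genes reached 3019 to 6757 against 138.8 to 555.6.

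Levels of the 7 genes were first described by cell type, as CPM of the UMIs summed per library and cell type, over the libraries with at least 20 cells of the type. Cybb was highest in monocytes and monocyte-derived macrophages (809 ± 330 CPM, SD, n = 11) and in border-associated macrophages (641 ± 249 CPM, n = 11), the macrophages of the meninges and vessel walls. These were followed by B cells (179 ± 83.8 CPM, n = 6), neutrophils (132 ± 81.6 CPM, n = 4) and microglia (68.1 ± 50.1 CPM, n = 11). Between the top pair the ranges over libraries overlapped, and the monocyte-derived cells were higher in 7 of 11 libraries. The range of border-associated macrophages lay wholly above that of B cells, while the ranges of B cells, neutrophils and microglia overlapped. B cells were above neutrophils in 1 of 2 shared libraries, and neutrophils above microglia in 2 of 4. All neutrophil libraries with enough cells were MCAO/R, and no MCAO/R + WT library entered the B cells, so these means come from unlike sets of mice. In the remaining 11 cell types Cybb averaged 5.05 to 10.4 CPM, and microglia were above astrocytes, the next in order, in 10 of 11 libraries with overlapping ranges.

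**Figure D1:**
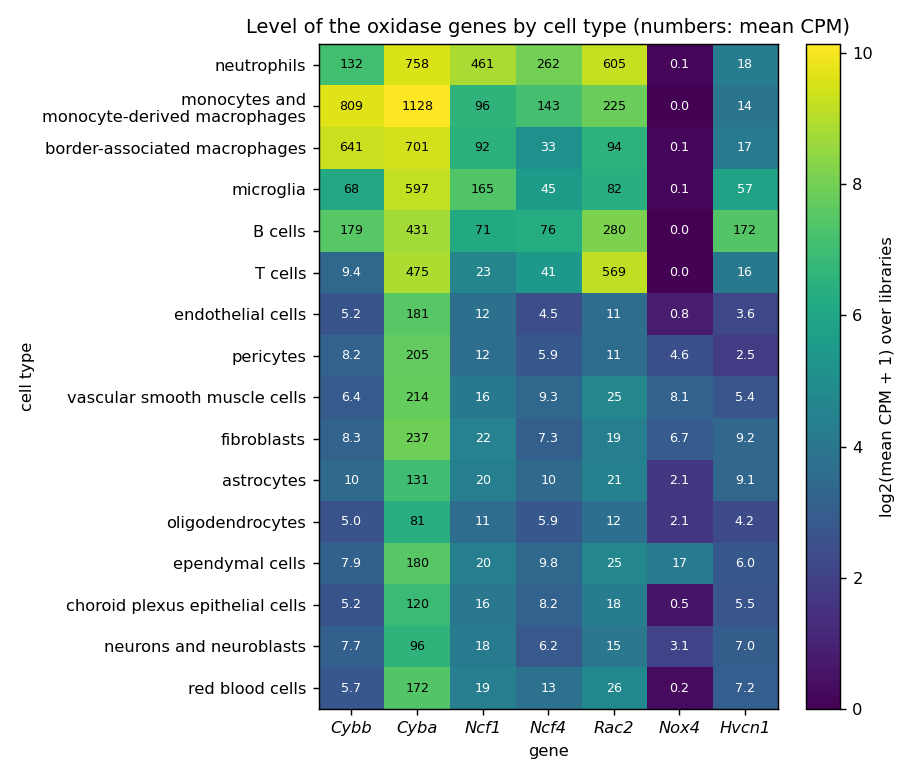
Levels of the 7 oxidase genes in each named cell type, as a heat map coloured by log2(mean CPM + 1) on 1 scale for all genes, with the mean CPM over the libraries with at least 20 cells of that type printed in each cell. Cybb is highest in monocyte-derived cells (809 CPM), Ncf1 in neutrophils (461 CPM), Hvcn1 in B cells (172 CPM) and Nox4 in ependymal cells (17.1 CPM).

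The partner in the membrane was spread more widely. Cyba averaged 1128 ± 334 CPM in monocyte-derived cells (n = 11), 758 ± 238 CPM in neutrophils (n = 4) and 701 ± 155 CPM in border-associated macrophages (n = 11), and these ranges overlapped. In shared libraries monocyte-derived cells were above neutrophils in 4 of 4, and neutrophils above border-associated macrophages in only 1 of 4. Among the cytosolic subunits, Ncf1 was highest in neutrophils (461 ± 164 CPM, n = 4), then in microglia (165 ± 36.1 CPM) and then in monocyte-derived cells (95.9 ± 16.1 CPM), with each of these ranges apart from the next. Microglia thus ranked above both other macrophage types for Ncf1 and below them for Cybb. Ncf4 was highest in neutrophils (262 ± 23.1 CPM, n = 4), above monocyte-derived cells (143 ± 36.0 CPM) without overlap. Rac2, which is largely confined to blood cells, reached 605 ± 233 CPM in neutrophils and 569 ± 132 CPM in T cells (n = 10), and their ranges overlapped. Hvcn1 was highest in B cells (172 ± 46.4 CPM, n = 6), then in microglia (57.1 ± 9.71 CPM, n = 11), then in neutrophils (18.0 ± 11.0 CPM, n = 4), with a gap between each of these ranges. When every cell was named by its own highest marker score instead of by cluster, the top type changed for Ncf4, to monocyte-derived cells, and for Rac2, to T cells, and for no other member.

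Nox4 had a different distribution. It averaged 17.1 ± 8.64 CPM in ependymal cells and 8.11 ± 7.20 CPM in vascular smooth muscle cells (n = 11 each), with overlapping ranges and the ependymal level higher in 9 of 11 libraries. Fibroblasts (6.70 ± 8.91 CPM, n = 7) and pericytes (4.64 ± 4.70 CPM, n = 11) came next. In microglia it averaged 0.120 CPM and in monocyte-derived cells 0.0422 CPM, and in B cells no UMI was found. Over the 16 named cell types, the genes whose profile was most like that of Cybb, by Pearson r of log2 levels among 14627 genes, were 4930430E12Rik (r = 0.97), Fcgr2b (0.95), an inhibitory Fc receptor, Ifi207 (0.94), Gm13184 and Milr1 (0.93 each). For Ncf1 they were Gm37168, Csf2rb2, Tlr6, Gm13822 and Tlr13 (0.97 to 0.98), and for Nox4 they were Tspyl5, Gm26911, Fhl1, Arvcf and Zc2hc1a (0.91 to 0.96). These correlations run over cell types that share the same libraries and carry no p-value.

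The share of all Cybb UMIs that lay in microglia also depended on how many cells of each type were captured. In sham + WT it was 40.9%, 46.6% and 43.7%, and border-associated macrophages held another 35.0% to 36.7%. In MCAO/R + WT microglia held 79.4% and 70.0%, and border-associated macrophages 11.0% and 18.3%. The microglial shares of these groups did not overlap, with means of 74.7% ± 6.63 (SD, n = 2) and 43.7% ± 2.81 (n = 3), and the exact two-sided permutation test gave p = 0.1, the smallest that 2 against 3 mice allow. With cells named one by one the means were 57.2% and 45.6%. In sham + Lrg1-/- microglia held 5.30%, 9.31% and 0.829% and monocyte-derived cells 45.6%, 26.4% and 50.7%. Border-associated macrophages there held 797 of 2112, 425 of 902 and 146 of 844 Cybb UMIs. In MCAO/R + Lrg1-/- microglia held 32.3%, 40.9% and 33.0%. Unnamed cells held up to 25.8% of the Cybb UMIs in that group, against at most 1.12% in the wild-type libraries.

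The question of whether injury or genotype changed the oxidase genes was then asked within each cell type, with edgeR's quasi-likelihood test on the summed UMIs of 11 libraries and a call at a Benjamini-Hochberg adjusted p below 0.05 over all genes tested. Values from here on are CPM adjusted by TMM factors unless plain CPM is named, replicates are given in order, and fold changes are log2 ± SE. Fewer transcripts per cell and a different mix of cell states within a named type cannot be told apart in such sums. In microglia 6 of the 7 members were tested, and Nox4, with 0 to 12 UMIs a library, was not. The counts of members called stand against a high background, because 21.6% of the 18432 genes tested were called between MCAO/R + WT and sham + WT, 37.4% between MCAO/R + Lrg1-/- and sham + Lrg1-/-, 23.5% between the genotypes after sham surgery and 24.1% between them after MCAO/R. Of the 6 members, 3, 4, 4 and 2 were called in these comparisons.

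Cybb, the NOX2 subunit, separated the sham genotypes in microglia. It stood at 49.1, 69.8 and 68.3 CPM in sham + WT, 15.4, 15.7 and 2.59 in sham + Lrg1-/-, 193 and 82.2 in MCAO/R + WT, and 72.1, 124 and 81.2 in MCAO/R + Lrg1-/-. All sham + Lrg1-/- mice lay below every other mouse, the MCAO/R + WT mice lay above every sham mouse, and the groups after MCAO/R overlapped. Cybb was lower in sham + Lrg1-/- than in sham + WT by a log2 change of -2.35 ± 0.42 (adjusted p = 0.00157) and higher in MCAO/R + Lrg1-/- than in sham + Lrg1-/- by 2.92 ± 0.42 (adjusted p = 0.000158). Both calls held under all 17 and all 18 alternative settings run on them. The rise of 1.14 ± 0.40 in MCAO/R + WT over sham + WT did not pass (adjusted p = 0.0547), nor did the difference between genotypes after MCAO/R (-0.57 ± 0.40, adjusted p = 0.317). The first of these was called under 4 of 17 settings and ran from -0.16 to 1.64 over them, with 0.40 without MCAO/R + WT replicate 1 and 1.64 (adjusted p = 0.00517) without replicate 2.

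The low Cybb of sham + Lrg1-/- microglia rested on few molecules. Those libraries gave 112, 84 and 7 UMIs of Cybb from 1208, 728 and 311 microglia, against 1860, 2652 and 2423 UMIs from 4758, 3932 and 3497 microglia in sham + WT. A Cybb UMI was found in 1.61% to 3.98% of sham + Lrg1-/- microglia and in 11.7% to 16.8% of sham + WT microglia, where median depths were 4229 to 6243 and 8384 to 10280 UMIs per cell. With every cell thinned to 1000 UMIs the shares were 0.412% to 0.828% and 3.89% to 4.73%. In oligodendrocytes, which should lack the gene, the thinned shares were 0% to 1.02% in sham + Lrg1-/- and 0.247% to 0.516% in sham + WT, and the unthinned shares were 0.762% to 2.04% and 2.18% to 3.12%. As ranges over libraries, the thinned share of sham + Lrg1-/- microglia lay within that of oligodendrocytes. That of sham + WT microglia lay above it. Within each sham + Lrg1-/- library, however, Cybb was higher in microglia than in oligodendrocytes, in plain CPM without TMM factors (16.48 against 0.9716, 17.18 against 9.257 and 2.785 against 1.343). These oligodendrocyte values rested on only 4, 18 and 2 UMIs, beside the 112, 84 and 7 of microglia.

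**Figure D2:**
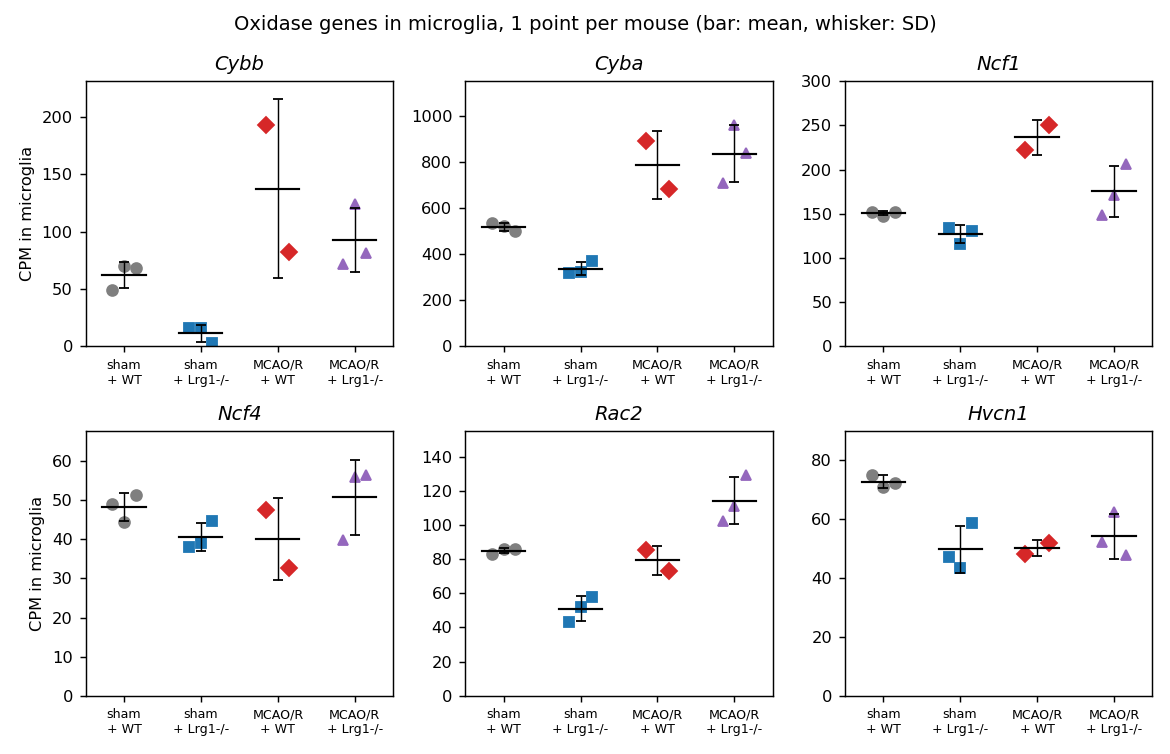
TMM-adjusted CPM of the 6 oxidase genes tested in microglia, 1 point per mouse, with a bar for the mean and a whisker for the SD of each group. Cybb, Cyba and Rac2 are lowest in all 3 sham + Lrg1-/- mice, and Ncf1 is highest in the MCAO/R + WT mice (222 and 250 CPM).

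Cyba, the membrane partner of both NOX2 and NOX4, was lower in the sham knockouts and higher after MCAO/R in both genotypes. Its levels in microglia were 535, 520 and 500 CPM in sham + WT, 317, 322 and 371 in sham + Lrg1-/-, 891 and 682 in MCAO/R + WT, and 710, 959 and 836 in MCAO/R + Lrg1-/-. The 4 groups fell into an order without overlap except between the operated genotypes. Cyba rose after MCAO/R in wild-type mice by 0.60 ± 0.16 (adjusted p = 0.0146) and in knockout mice by 1.31 ± 0.14 (adjusted p = 3.17e-05), and it was lower in sham + Lrg1-/- than in sham + WT (-0.62 ± 0.14, adjusted p = 0.0073). The wild-type rise held under 12 of 17 settings. It lost its call, among others, without sham + WT replicate 3 (0.58), without MCAO/R + WT replicate 1 (0.40) and with cells thinned to 1000 UMIs (0.51). It was also lost within the microglial cluster 9 described below, where the rise was smaller than these. The rise in knockout mice and the difference between sham genotypes held under all 18 and all 17 settings.

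Ncf1, which encodes the organizer subunit that brings the cytosolic complex to the membrane, followed another pattern. It stood at 152, 148 and 152 CPM in sham + WT, 134, 116 and 131 in sham + Lrg1-/-, 222 and 250 in MCAO/R + WT, and 148, 171 and 206 in MCAO/R + Lrg1-/-. Both operated wild-type mice were above every other mouse. The rise in wild-type mice was 0.65 ± 0.14 (adjusted p = 0.00536) and was called under all 17 settings, and the rise in knockout mice was 0.47 ± 0.13 (adjusted p = 0.0128), which was called under 16 of 18 and lost without sham + Lrg1-/- replicate 2 (0.40) and with cells thinned (0.34). Ncf1 was lower in MCAO/R + Lrg1-/- than in MCAO/R + WT (-0.43 ± 0.14, adjusted p = 0.0436), but this call held under only 10 of 18 settings. It was lost, among others, without MCAO/R + Lrg1-/- replicate 1 (-0.33), without replicate 2 of that group (-0.39), without MCAO/R + WT replicate 2 (-0.35) and without both libraries high in Xist (-0.19).

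Rac2, the GTPase that switches the complex on, separated the operated genotypes in the other direction. Its levels were 83.3, 85.9 and 85.8 CPM in sham + WT, 43.3, 52.2 and 57.7 in sham + Lrg1-/-, 85.4 and 73.2 in MCAO/R + WT, and 102, 111 and 129 in MCAO/R + Lrg1-/-. The sham knockouts were below and the operated knockouts above all wild-type mice. In MCAO/R + Lrg1-/- replicate 1, however, 444 of the 715 microglia were in cluster 30, where Rac2 was high, as given below. Rac2 differed from sham + WT by -0.74 ± 0.14 in sham + Lrg1-/- (adjusted p = 0.00186) and rose by 1.17 ± 0.14 after MCAO/R in knockout mice (adjusted p = 4.23e-05), and both calls held under every setting run. In wild-type mice the difference after MCAO/R was -0.10 ± 0.15 (adjusted p = 0.687). Between the operated genotypes it was 0.53 ± 0.15 (adjusted p = 0.0201), which held under 14 of 18 settings and was lost, among others, without MCAO/R + WT replicate 2 (0.41), with only the 2 groups compared in the fit (0.48) and within the microglial cluster 9 described below (0.05).

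The test of the difference between the 2 responses to MCAO/R, that in knockout minus that in wild-type mice, called 2 of the 6 members against 10.9% of all genes. For Rac2 it was 1.27 ± 0.20 (adjusted p = 0.00406), called under all 22 settings. For Cyba it was 0.71 ± 0.21 (adjusted p = 0.0496), called under 9 of 22, and it was lost when any of 8 single libraries was left out (0.54 to 0.78). For Cybb it was 1.78 ± 0.58 (adjusted p = 0.0663) and for Hvcn1 0.67 ± 0.21 (adjusted p = 0.0518), and DESeq2 called Hvcn1 as well (0.63, adjusted p = 0.0246). Since the sham + Lrg1-/- group enters each of these values and was the lowest for Cybb, Cyba and Rac2, they are not independent of the sham comparison above.

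Hvcn1, the proton channel, was the only member called lower after MCAO/R in microglia, and this in wild-type mice. It stood at 75.1, 70.8 and 72.4 CPM in sham + WT, 47.0, 43.5 and 58.9 in sham + Lrg1-/-, 48.2 and 52.1 in MCAO/R + WT, and 52.2, 62.6 and 47.7 in MCAO/R + Lrg1-/-. The 3 sham + WT mice were above all 8 others, whose groups overlapped. Hvcn1 fell in MCAO/R + WT by 0.54 on the log2 scale (SE 0.15, adjusted p = 0.0212) and was lower in sham + Lrg1-/- than in sham + WT by -0.56 ± 0.14 (adjusted p = 0.011). The first call held under 11 of 17 settings and was lost, among others, on leaving out any sham + WT library (-0.56 to -0.52) or MCAO/R + WT replicate 1 (-0.48) and with cells thinned (-0.54), and the second was lost, among others, without sham + Lrg1-/- replicate 1 (-0.51) or 2 (-0.44). Ncf4 ranged from 32.8 to 56.5 CPM over the 11 mice with overlapping groups, and none of its comparisons was called.

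Several other measures also differed between the groups of microglia. Among 8 immediate early genes, which respond to tissue dissociation, 6 were called lower in sham + Lrg1-/- than in sham + WT microglia and all 8 were lower in MCAO/R + Lrg1-/- than in MCAO/R + WT, for example Jun (-1.40 and -1.94) and Fos (-1.31 and -1.52). Of 6 neutrophil genes, 4 were called higher in MCAO/R + Lrg1-/- microglia than in MCAO/R + WT microglia, with summed levels of 17.5 to 328 CPM against 13.4 to 13.7. Against sham + Lrg1-/- microglia 4 were higher as well, where the sum was 21.8 to 47.7 CPM, and between MCAO/R + WT and sham + WT (6.31 to 13.03 CPM) 1 was. Red cell genes were all 5 higher in knockout microglia in both comparisons of genotypes, and so were all 4 choroid plexus genes. Of all genes tested in microglia, 23.5% were called in either direction between the sham genotypes and 24.1% between the operated ones. The shares were 37.4% between operated and sham knockouts and 21.6% between MCAO/R + WT and sham + WT. The part of the listed genes in the oxidase results was not tested. Oligodendrocytes of the same library give a rough measure of RNA shared across cells, in plain CPM without TMM factors, as the summed levels are. Such RNA was not equal in the cell types. Choroid plexus genes in MCAO/R + WT summed to 855.9 to 1007 CPM in oligodendrocytes and 138.8 to 261.5 in microglia. In MCAO/R + Lrg1-/- they summed to 4310 to 11720 and 3019 to 5255. Neutrophil genes in MCAO/R + WT went the other way (9.542 to 10.93 and 13.44 to 13.74). The differences below are therefore not levels free of such RNA. After subtracting the plain CPM in oligodendrocytes of the same library, Rac2 in microglia was 37.1 to 50.1 CPM in sham + Lrg1-/-, 73.7 to 79.3 in sham + WT, 68.8 to 73.9 in MCAO/R + WT and 83.2 to 91.8 in MCAO/R + Lrg1-/-. The plain CPM means of the operated groups were 75.0 CPM in wild-type mice and 114.8 CPM in knockouts before this subtraction and 71.3 and 88.1 CPM after it, so the gap between them became smaller. For Cyba the same differences were 282 to 285, 464 to 474, 641 to 785 and 614 to 746 CPM. There the plain CPM means of the operated groups changed order, from 743 CPM in wild-type mice and 836 CPM in knockouts to 713 and 663 CPM. For Cybb they were 1.44 to 15.5, 44.0 to 63.5, 78.1 to 174 and 68.9 to 105 CPM. For Ncf1 the means of operated wild-type and knockout mice went from 224.3 and 175.8 to 217 and 152.8 CPM, so that gap widened. They went from 37.91 and 50.71 to 35.65 and 38.05 CPM for Ncf4, and from 47.56 and 54.48 to 45.9 and 47.97 CPM for Hvcn1.

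The clusters that made up the microglia differed between groups, which bears on each comparison. Of the clusters named microglia, numbers 7 and 10 were mostly sham + WT cells (7049 and 4058), number 8 was mostly MCAO/R + WT (6277), number 6 was mostly knockout (1855 sham and 4479 MCAO/R cells), and number 9 held both operated groups (1812 wild-type and 3396 knockout cells). No oxidase member was among the genes used for clustering. Levels within clusters are plain CPM. Number 30 held 444 of the 715 microglia of MCAO/R + Lrg1-/- replicate 1, with Rac2 at 218.3 CPM. In clusters 6 and 9 of that mouse (126 cells each) Rac2 was at 76.33 and 85.93 CPM. In replicates 2 and 5 of that group it was at 101.3 and 124.7 (cluster 6) and 105.3 and 127.2 (cluster 9). In MCAO/R + WT it was at 55.99 and 93.02 (cluster 6) and 83.21 and 102.7 (cluster 9). The part of cluster 30 in the Rac2 level was not tested. Within cluster 9 Cybb was at 230 to 277 CPM in MCAO/R + WT and 147 to 162 in MCAO/R + Lrg1-/-, and 171 to 378 in the 89 sham + WT cells found there. Within cluster 6 it was at 25.8 to 40.7 CPM in MCAO/R + WT, where each library held only 37 such cells, and 18.2 to 33.1 in sham + WT, against 1.44 to 19.2 in MCAO/R + Lrg1-/- and 1.77 to 17.9 in sham + Lrg1-/-. In both clusters the operated knockouts lay below the operated wild-type mice, and their means were 153.9 and 253.2 CPM in cluster 9 and 12.78 and 33.28 CPM in cluster 6. Restricted to cluster 9, a choice made after seeing the data, the genotype difference in Cybb after MCAO/R was -0.88 (adjusted p = 0.0439), and with all microglia thinned to 1000 UMIs it was -1.05 (adjusted p = 0.0484). Ncf1 in cluster 9 differed by -0.41 and Rac2 by 0.05, neither with a call. Between MCAO/R + WT and sham + WT, Cybb in cluster 9 differed by -0.16 and Cyba by 0.20, without a call.

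**Figure D3:**
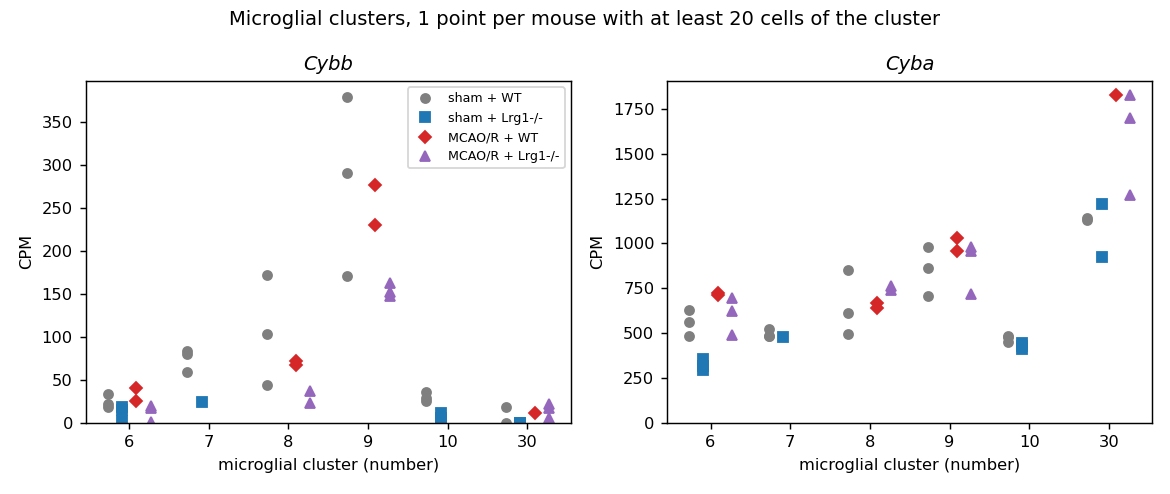
Levels of Cybb (left) and Cyba (right) by microglial cluster and group, in CPM of the UMIs summed per library within the cluster, 1 point per mouse with at least 20 cells there. Cybb is highest in cluster 9, which holds both operated groups (230 to 277 CPM in MCAO/R + WT, 147 to 162 CPM in MCAO/R + Lrg1-/-), and in cluster 6 of MCAO/R + Lrg1-/- it is at most 19.2 CPM.

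In border-associated macrophages 6 members were tested, and 3, 1, 1 and 0 were called in the comparisons of MCAO/R with sham in wild-type mice (background 8.99%), the same in knockouts (9.47%), the genotypes after MCAO/R (16.0%) and the genotypes after sham (3.46%). Cybb stood at 800, 1202 and 1042 CPM in sham + WT, 726, 515 and 514 in sham + Lrg1-/-, 486 and 490 in MCAO/R + WT, and 638, 369 and 374 in MCAO/R + Lrg1-/-. All sham + WT mice were above all others. Cybb fell in MCAO/R + WT by 1.06 on the log2 scale (SE 0.25, adjusted p = 0.0132), the opposite direction to its estimate in microglia. That call held under 12 of 16 settings and was lost, among others, without sham + WT replicate 2 (-0.92) and with either MCAO/R + WT library alone (-1.07 and -1.06). The lower level in sham + Lrg1-/- (-0.79 ± 0.22) did not pass (adjusted p = 0.0626).

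Ncf1 rose in the same cells as Cybb fell. Its levels were 43.3, 79.2 and 61.6 CPM in sham + WT, 62.0, 74.0 and 109 in sham + Lrg1-/-, 143 and 128 in MCAO/R + WT, and 70.6, 118 and 126 in MCAO/R + Lrg1-/-. The operated wild-type mice were above all others. The rise was 1.15 ± 0.26 (adjusted p = 0.0101), and it was lost without sham + WT replicate 1 (0.95), without MCAO/R + WT replicate 1 (1.05) and with cells thinned (0.93). Rac2 in these macrophages was at 101, 112 and 105 CPM in sham + WT, 78.3, 69.1 and 106 in sham + Lrg1-/-, 64.1 and 53.6 in MCAO/R + WT, and 118, 118 and 116 in MCAO/R + Lrg1-/-. The operated wild-type mice were the lowest and the operated knockouts the highest. Rac2 fell by 0.84 on the log2 scale in MCAO/R + WT against sham + WT (SE 0.19, adjusted p = 0.00978) and was higher by 0.99 ± 0.20 in MCAO/R + Lrg1-/- than in MCAO/R + WT (adjusted p = 0.00404). The first lost its call, among others, without MCAO/R + WT replicate 2 (-0.73) and with cells thinned (-0.55), and the second without the libraries high in Xist (0.94) and with cells thinned (0.67). Neutrophil genes were called higher in the operated knockouts here as well (3 of 3 tested, summed level 14.8 to 733 CPM against 12.6 to 27.5), and their part in the Rac2 difference was not tested.

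Cyba in border-associated macrophages rose after MCAO/R in knockout mice, from 557, 497 and 630 CPM to 794, 1002 and 876 (0.68 ± 0.16, adjusted p = 0.0158), without overlap. This call held under 12 of 18 settings and was lost among others without sham + Lrg1-/- replicate 1 (0.70) or 2 (0.60), without MCAO/R + Lrg1-/- replicate 2 (0.59) and without both libraries high in Xist (0.64). Ncf4, at 29.0 and 13.1 CPM in MCAO/R + WT and 44.7, 62.1 and 28.9 in MCAO/R + Lrg1-/-, did not pass (1.16 ± 0.39, adjusted p = 0.0522). Hvcn1 ranged from 8.29 to 24.2 CPM and was not called. The difference between the responses called none of the 6 by edgeR against a background of 0.0880%, with Rac2 and Ncf4 at an unadjusted p below 0.05, and DESeq2 called Rac2. For the sham genotypes, where edgeR also called none, Cybb and Rac2 had such a p and DESeq2 called Cybb.

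**Figure D4:**
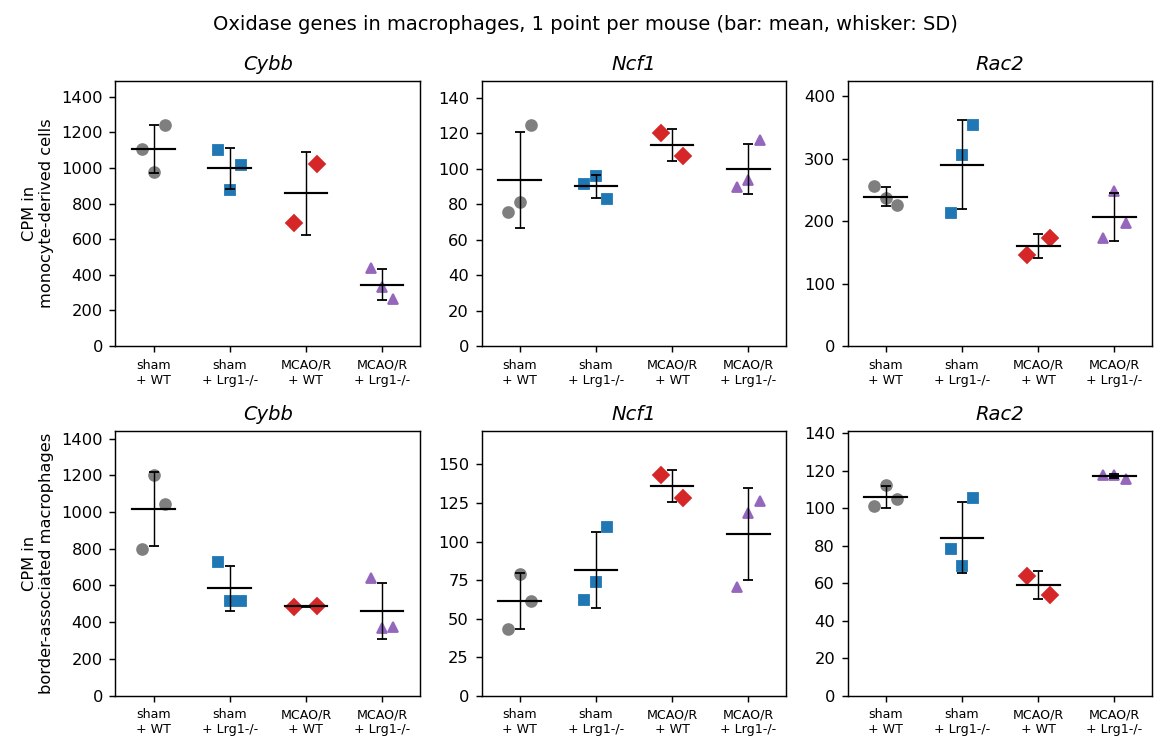
TMM-adjusted CPM of Cybb, Ncf1 and Rac2 in monocyte-derived cells (upper row) and border-associated macrophages (lower row), 1 point per mouse, with a bar for the mean and a whisker for the SD. In monocyte-derived cells Cybb of the 3 MCAO/R + Lrg1-/- mice (267 to 439 CPM) lies below that of all others, and in border-associated macrophages Rac2 of the MCAO/R + WT mice (53.6 and 64.1 CPM) lies below that of all others.

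In monocytes and monocyte-derived macrophages the only member called was Cybb. It stood at 1106, 976 and 1241 CPM in sham + WT, 1100, 876 and 1017 in sham + Lrg1-/-, 694 and 1022 in MCAO/R + WT, and 439, 329 and 267 in MCAO/R + Lrg1-/-. The 3 operated knockouts were below all 8 other mice, which overlapped. Cybb was lower in MCAO/R + Lrg1-/- than in sham + Lrg1-/- by -1.54 ± 0.21 (adjusted p = 0.000585; background 15.3%), called under all 18 settings, and lower than in MCAO/R + WT by -1.32 ± 0.23 (adjusted p = 0.00712; background 4.21%). The second call held under 13 of 17 settings and was lost without MCAO/R + WT replicate 2 (-0.9995), with only the groups compared (-1.34), with cells thinned (-0.86) and with cells named one by one (-0.77). These MCAO/R + WT libraries held 57 and 20 such cells and the MCAO/R + Lrg1-/- libraries 45, 887 and 721. Neutrophil genes summed to 57.3 to 751 CPM in the former and 16.1 to 929 in the latter, and their part in this result was not tested.

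No other tested member was called in the same cells. Cyba was at 938, 1746 and 1938 CPM in MCAO/R + Lrg1-/- and 975, 891 and 1202 in sham + Lrg1-/- (0.59 ± 0.23, adjusted p = 0.0987). Rac2 was at 173, 248 and 197 CPM in MCAO/R + Lrg1-/- and 213, 306 and 354 in sham + Lrg1-/- (-0.47 ± 0.21, adjusted p = 0.148), with overlap, and both genes had an unadjusted p below 0.05 there. Ncf1 ranged from 75.4 to 124 CPM over the 11 mice and Ncf4 from 94.9 to 222, with no call. Between MCAO/R + WT and sham + WT (background 3.72%), between the sham genotypes (2.79%) and for the difference between the responses (0.0237%) edgeR called no member, 1 member in each had an unadjusted p below 0.05 (Rac2, Hvcn1 and Cybb), and DESeq2 called none.

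Neutrophils could be compared only after MCAO/R, between 2 wild-type and 2 knockout libraries, because the others held fewer than 20 of these cells. The named cluster held 1587 MCAO/R + Lrg1-/- and 97 MCAO/R + WT cells. Unnamed clusters 23 and 24 scored highest for neutrophil markers, closely followed by monocyte markers, and were left out. They held 6178 and 6043 MCAO/R + Lrg1-/- cells and 10 and 31 MCAO/R + WT cells. Ncf1 was at 556 and 576 CPM in MCAO/R + WT and 330 and 380 in MCAO/R + Lrg1-/-, and Rac2 at 423 and 433 against 1168 and 566. Cyba was at 528 and 560 against 1314 and 809. The genotypes did not overlap for these 3 genes or for Ncf4 (250 and 230 against 310 and 286), and the first 3 had an unadjusted p below 0.05, but edgeR called none of the 6 members (background 0.0630%) and DESeq2 called none. Cybb, at 254 and 67.5 against 131 and 93.3, overlapped.

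In endothelial cells all 7 members were tested. None was called between MCAO/R + WT and sham + WT (background 16.5%, with no member at an unadjusted p below 0.05 and none called by DESeq2). None was called between the sham genotypes either (14.1%, Cybb at such a p, none by DESeq2), nor for the difference between responses (1.53%, Cyba and Cybb at such a p, Cyba called by DESeq2). Cyba was at 147, 132 and 133 CPM in sham + WT, 148 and 128 in MCAO/R + WT, 142, 160 and 170 in sham + Lrg1-/- and 228, 294 and 305 in MCAO/R + Lrg1-/-, and the operated knockouts were above all others. It was 1.001 ± 0.14 higher in MCAO/R + Lrg1-/- than in MCAO/R + WT (adjusted p = 0.000641) and 0.82 ± 0.12 higher than in sham + Lrg1-/- (adjusted p = 0.00153), and both calls held under every setting run. These were among 4 members called higher in the first comparison (Cyba, Ncf4, Rac2 and Hvcn1; background 23.9%) and 2 in the second (Cyba and Cybb; 19.1%), and outside Cyba the levels were at most 37.4 CPM. Of these, the Rac2 call was lost without MCAO/R + WT replicate 2 (1.53), with only the groups compared (1.87) and with cells thinned (1.99), and those of Ncf4, Hvcn1 and Cybb were each lost without any of 3 to 5 single libraries. Red cell genes summed to 21420 to 22290 CPM in endothelial cells of MCAO/R + Lrg1-/- and 640 to 1566 in those of MCAO/R + WT, and neutrophil genes to 44.6 to 560 against 10.3 to 16.2. Mean Cyba in MCAO/R + Lrg1-/- and MCAO/R + WT was 276 and 138 CPM in endothelial cells, and 173.9 and 28.65 CPM in oligodendrocytes. The part of RNA from other cells in the endothelial calls, that of Cyba included, was not tested. Nox4 was at 0.217 to 1.81 CPM with no call.

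Members were also called in cell types that are not phagocytes, in 30 of 61 tested combinations of a member and a cell type, each in at least 1 of the 5 contrasts, against a background of 22.1% over the genes of those types and of 0.208% to 48.7% in the single types. They were in oligodendrocytes (6 members), choroid plexus epithelial cells, neurons with neuroblasts, and vascular smooth muscle cells (5 each), pericytes (4), ependymal cells (3), astrocytes and T cells (1 each). Apart from Nox4 in oligodendrocytes, all of these calls were of a higher level in a knockout group. In oligodendrocytes, for example, Cyba was at 33.9, 17.6 and 18.5 CPM in sham + WT, 37.2 and 20.1 in MCAO/R + WT, 56.2, 70.9 and 120 in sham + Lrg1-/- and 148, 164 and 210 in MCAO/R + Lrg1-/- (2.62 ± 0.38 between the operated genotypes, adjusted p = 0.000627; background 29.5%). Rac2 there was at 2.19 to 4.80 CPM in MCAO/R + WT and 20.3 to 38.2 in MCAO/R + Lrg1-/- (3.01 ± 0.42, adjusted p = 0.000545). Red cell genes in the same oligodendrocytes summed to 13900 to 32260 CPM in MCAO/R + Lrg1-/- and 20.2 to 20.6 in MCAO/R + WT, and microglial markers to 715 to 1402 against 166 to 259. Their part in these calls was not tested.

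Nox4 in oligodendrocytes was the exception. It was at 0.638, 0.495 and 1.16 CPM in sham + WT (11, 9 and 14 UMIs), 0.501, 0 and 0 in sham + Lrg1-/- (2, 0 and 0 UMIs), 4.93 and 11.3 in MCAO/R + WT (78 and 414 UMIs), and 1.61, 0.718 and 0.802 in MCAO/R + Lrg1-/- (5, 6 and 15 UMIs). Both operated wild-type mice were above all 9 others. Nox4 rose by 3.46 ± 0.47 in MCAO/R + WT over sham + WT (adjusted p = 0.000227; background 21.2%), with means of 0.764 CPM in sham + WT and 8.14 CPM in MCAO/R + WT, and it was lower in MCAO/R + Lrg1-/- by -3.16 ± 0.51 (adjusted p = 0.00109). Both calls held under all 15 and all 16 settings run, and the values ran from 2.71 to 3.90 and from -3.60 to -2.43. In vascular smooth muscle cells Nox4 was at 13.2 and 25.6 CPM in MCAO/R + WT, 7.37, 9.22 and 5.33 in sham + WT, and 0, 7.71 and 10.01 in MCAO/R + Lrg1-/-, where both operated wild-type mice were again the highest but no comparison was called. In ependymal cells it was at 11.6 and 10.5 CPM in MCAO/R + WT, within the range of sham + WT (10.2 to 23.5), and at 16.8 to 27.6 in MCAO/R + Lrg1-/-, above MCAO/R + WT without overlap and without a call (0.96 ± 0.61, adjusted p = 0.338).

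**Figure D5:**
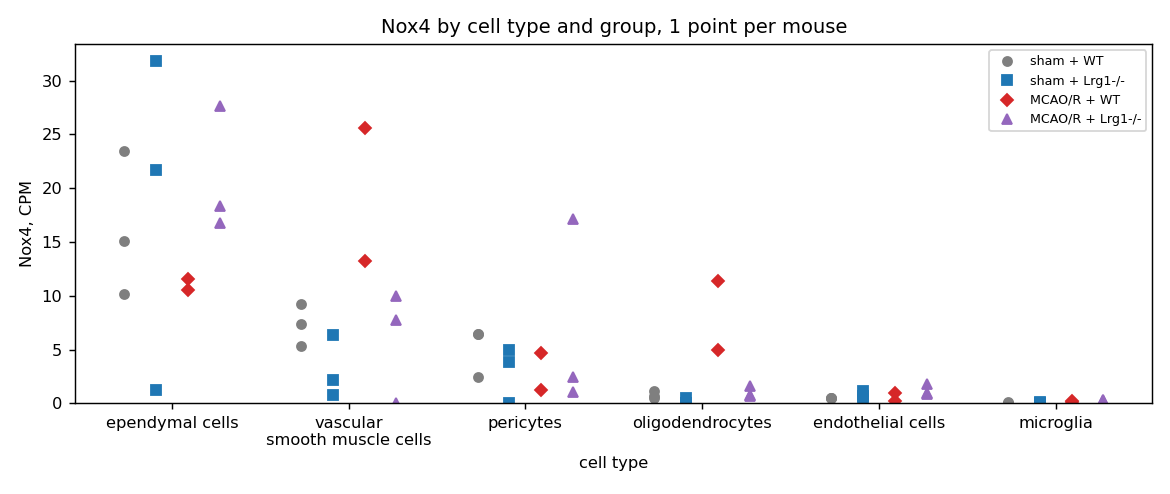
TMM-adjusted CPM of Nox4 in 6 cell types (ependymal, vascular smooth muscle, pericytes, oligodendrocytes, endothelial cells and microglia), 1 point per mouse, coloured by group. In oligodendrocytes the 2 MCAO/R + WT mice (4.93 and 11.3 CPM) lie above the other 9.

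The rest of the oxidase pathway was read from lists of its known partners. Of 22 partners and activators, all tested in microglia, 3 were higher and 5 lower in MCAO/R + WT than in sham + WT (11.9% and 9.72% of all genes), 2 higher and 6 lower after MCAO/R in knockouts (21.5% and 15.9%), 1 higher and 7 lower in sham + Lrg1-/- than in sham + WT (11.0% and 12.5%), and 1 higher and 9 lower in MCAO/R + Lrg1-/- than in MCAO/R + WT. In the last comparison the median log2 difference of the list was -0.36, beside 0.09 over all genes, where 12.5% were higher and 11.6% lower.

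The partners moved both ways. Pik3cd, a PI3-kinase catalytic subunit, was lower in all 4 comparisons (-0.67, -0.91, -0.996 and -1.23 in the order of the counts above), whereas Arhgdib, an inhibitor that holds Rac proteins in the cytosol, rose in operated knockouts against their shams (1.04 ± 0.10) and against MCAO/R + WT (0.66 ± 0.11). Itgam, a subunit of the complement receptor that can trigger the oxidase, fell in MCAO/R + WT by 1.10 on the log2 scale, and its partner Itgb2 rose by 0.53. In border-associated macrophages of MCAO/R + WT, 3 of 22 partners tested were higher (Itgb2 1.15, Slc11a1 1.01 and Cd47 0.89) and 1, Pik3cg, was lower (-1.03), beside 4.77% and 4.22% of all genes, in the same cells in which Cybb and Rac2 fell. In monocyte-derived cells of MCAO/R + Lrg1-/- against sham + Lrg1-/-, 1 of 22 partners tested was higher (Fcgr1, a high-affinity Fc receptor, 1.55) and 5 were lower, beside 7.08% and 8.20% of all genes, among them Prkcd (-1.33), Dock2 (-1.16) and Mapk14 (-0.995), beside the fall of Cybb.

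Of 14 enzymes that remove superoxide and peroxide, all tested in microglia, 5 were called higher and 0 lower in MCAO/R + WT, beside 11.9% and 9.72% of all genes, with Sod2, the mitochondrial superoxide dismutase, at 2.06 ± 0.24 (adjusted p = 6.53e-05), Prdx6 at 1.18 and Gpx1 at 1.13. In MCAO/R + Lrg1-/- against sham + Lrg1-/-, 10 were higher and 0 lower, with Sod2 at 1.59, Txn1 at 1.58 and Gpx1 at 1.44, beside 21.5% and 15.9% of all genes. Between the operated genotypes 5 were higher and 0 lower in the knockout, beside 12.5% and 11.6% of all genes, led by Mpo, a granule enzyme of neutrophils, at a very low level (1.18 CPM against 0.0707 in MCAO/R + WT), Prdx4 (1.18) and Sod1 (1.17). The neutrophil and red cell genes given above were higher in the same microglia, and their part in this was not tested. Sod1 was higher in sham + Lrg1-/- than in sham + WT as well (1.01) and Prdx3 lower (-0.60). In border-associated macrophages Sod2 rose by 2.15 in MCAO/R + WT and by 1.51 in MCAO/R + Lrg1-/-, and in monocyte-derived cells by 1.84 and 0.95.

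Of 9 transcription factors known for the oxidase genes, 8 were tested in microglia. Cebpb rose in MCAO/R + WT by 1.39 ± 0.22 (adjusted p = 0.000616) and in MCAO/R + Lrg1-/- by 0.69, while Irf8, a factor needed by microglia, fell in MCAO/R + WT by 0.78 and Elf1 by 0.56 on the log2 scale. In knockouts Elf1 (-0.93), Irf1 (-0.77) and Cebpa (-0.49) were lower after MCAO/R, and Irf1 was lower in knockouts than in wild-type mice after sham (-0.71) and after MCAO/R (-1.16). Cebpa was higher in sham + Lrg1-/- than in sham + WT by 0.91. In border-associated macrophages Elf1 was lower in both comparisons that include MCAO/R + Lrg1-/-, and in monocyte-derived cells of operated knockouts Irf1 (-1.17) and Irf8 (-0.81) were lower and Cux1 (1.005) higher than in sham knockouts. Of 8 other genes of the NADPH oxidase family, 4 were tested in microglia, and Duoxa1 was lower in MCAO/R + WT (-3.75, from 1.12 to 0.0769 CPM) and in MCAO/R + Lrg1-/- (-2.90), where Noxo1 was lower too (-1.16). In border-associated macrophages 1 of these 8 was tested and not called, and in monocyte-derived cells none was tested.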

How the data were processed

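Libraries were made from right brain tissue with a droplet-based 3' kit, 1 mouse each. The deposited gene-by-barcode matrices hold whole-number UMI counts that the authors made with Cell Ranger (7.0.1 per the file headers) and STAR on mm10, without normalization. Barcodes were retained from 500 genes, 1000 UMIs and a mitochondrial share below 25% on, and the 6% highest doublet scores per library were removed. Cells were clustered (2000 variable genes without the members and their partners, 15 principal components, 3 neighbours per library, Leiden resolution 0.3, later rounds 0.5) with Python 3.11.15, scikit-learn 1.9.0 and leidenalg 0.10.2, and clusters were named from at least 3 markers. Counts were summed per library and cell type with at least 20 cells and tested in R 4.3.3 with edgeR 4.0.16 (quasi-likelihood test, TMM, filterByExpr, all groups in 1 fit, Benjamini-Hochberg adjustment). Each library is 1 mouse, so p-values measure the spread between mice, and cell shares carry counting error beside it. CPM are counts scaled to 1000000 per library and type.

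The members and lists were chosen with earlier results of these data known. The 7 members are named in every cell type, and of each list up to 3 called genes per direction with the largest change. Among these lists, red cell, choroid plexus and neutrophil genes trace RNA of other cells, and immediate early genes trace dissociation. Alternatives were RLE scaling, DESeq2 1.42.0, no low-count filter, a 10% mitochondrial limit, doublets kept, cells thinned to 1000 UMIs, cells named one by one, haemoglobin left out, a replicate block, only the groups compared, an added fold limit and each library left out. Also run, chosen after seeing the data, were 2 more: cluster 9 only, and without the libraries high in Xist. Replicate numbers are shared by groups but do not pair the mice: in microglia, deviations of same-numbered libraries from their group means correlated at -0.441 to 0.097. On simulated counts with 200 changed genes, for MCAO/R + Lrg1-/- against MCAO/R + WT, 41.4% of 2-fold and 75.8% of 4-fold changes were recovered in microglia (17863 genes), 24.0% and 81.6% in border-associated macrophages (10933 genes), 30.1% and 79.2% in monocyte-derived cells (7959 genes), and 48.5% and 81.4% in endothelial cells (16511 genes). Values of 2 genes of these lists are not reported here, though the genes are in the lists' counts.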

Additional observations from a re-analysis of the deposited data

Results flagged for a closer look

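Among the members, 2 had a response to MCAO/R in microglia that differed between the genotypes by a test of the difference itself, edgeR's interaction term. For Rac2 the difference in log2 change, knockout minus wild type, was 1.27 (SE 0.20, adjusted p = 0.00406), since Rac2 rose by 1.17 in knockouts and was at -0.10 in wild-type mice. For Cyba it was 0.71 (SE 0.21, adjusted p = 0.0496), with rises of 1.31 and 0.60, and it was called under 9 of 22 settings only and lost without any 1 of 8 single libraries. The sham + Lrg1-/- microglia, which had the lowest level of both genes, enter both values, and red cell and choroid plexus RNA was higher in all knockout microglia. Neutrophil genes summed to 17.5 to 328 CPM in MCAO/R + Lrg1-/- microglia and 13.4 to 13.7 in MCAO/R + WT microglia, and the part of these in both values was not tested. Within microglial cluster 9 Rac2 differed by 0.05 between the operated genotypes.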

How the results depend on the processing

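The 73 called changes of members were recomputed under 1241 combinations with an alternative, of which 977 kept the call, 264 kept the direction without it and 0 reversed. All 73 held under RLE scaling (which moved the median of all genes by -0.1054 to 0.0145 on the log2 scale), with haemoglobin left out and with the fold limit. With cells thinned 27 held, 28 lost the call and the rest had no result. The replicate block kept 41 and lost 32. The causes were not tested. Where a library was left out, both the number of mice and the mice themselves changed, and these cannot be told apart.

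Counts of members called moved as follows. With thinned cells they went from 3 to 1 in microglia (MCAO/R + WT against sham + WT) and from 2 to 1 (difference between responses), from 3 to 1 (MCAO/R + WT against sham + WT) and 1 to 0 (operated genotypes) in border-associated macrophages, from 1 to 0 in monocyte-derived cells (operated genotypes), from 2 to 1 (operated against sham knockouts) and 4 to 1 (operated genotypes) in endothelial cells, and from 30 to 11 in other types. Under the replicate block they went to 1, 0 and 1 in microglia (wild-type response, operated genotypes, difference), to 1 and 0 in border-associated macrophages (wild-type and knockout responses) and to 16 in other types. Without the low-count filter they became 1 in microglia (operated genotypes), 2, 1 and 2 in border-associated macrophages (operated genotypes, sham genotypes, difference), 2 in monocyte-derived cells (knockout response) and 1 and 1 in endothelial cells (sham genotypes, difference). With only the groups compared they became 0 in microglia and 0 in monocyte-derived cells (operated genotypes), 1 in border-associated macrophages (sham genotypes), and 1 and 1 in endothelial cells (operated and sham genotypes). With cells named one by one they became 1 in microglia (difference), 3, 3 and 1 in border-associated macrophages (knockout response, operated genotypes, sham genotypes), 0 in monocyte-derived cells (operated genotypes) and 1, 1 and 2 in endothelial cells (wild-type response, knockout response, sham genotypes). With doublets kept they became 1 in microglia (difference), 2 in border-associated macrophages (operated genotypes) and 1 in endothelial cells (sham genotypes), and with the 10% mitochondrial limit 2 and 1 in border-associated macrophages (operated genotypes, difference). DESeq2 gave 3 in microglia (difference), 1 and 1 in border-associated macrophages (sham genotypes, difference), and 1 in endothelial cells (difference). Without the libraries high in Xist they became 1 and 1 in microglia (operated genotypes, difference), 0 and 0 in border-associated macrophages (knockout response, operated genotypes), 2 in monocyte-derived cells (knockout response) and 1 in endothelial cells (difference), and within cluster 9 the microglial count was 1 (operated genotypes).

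With 1 library left out at a time, microglial counts ran from 1 to 4 (wild-type response), 0 to 3 (operated genotypes) and 1 to 4 (difference), those of border-associated macrophages from 1 to 3, 0 to 2, 1 to 2 and 0 to 1 (wild-type response, knockout response, operated genotypes, difference), those of monocyte-derived cells from 1 to 2 and 0 to 1 (knockout response, operated genotypes), those of endothelial cells from 1 to 4, 1 to 4 and 0 to 1 (knockout response, operated genotypes, difference), and those of other types from 17 to 29. A lone operated wild-type library, like the lone operated knockout library left without those high in Xist, is then assumed to vary like the other groups. Only 2 operated wild-type mice and 7 to 112 Cybb UMIs per sham + Lrg1-/- microglial library limit the precision.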

Other observations

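Unnamed cells, which entered no comparison, held 17.1% of the Cybb UMIs of sham + Lrg1-/- replicate 5 and 25.8% of those of MCAO/R + Lrg1-/- replicate 5, against 0.108% to 1.12% in sham + WT.

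Microglial cluster 30 (875 cells, median depth 2611 UMIs per cell) had high Cyba and Rac2 beside low Cybb. It was small in all, but held 444 of the 715 microglia of MCAO/R + Lrg1-/- replicate 1. In MCAO/R + Lrg1-/-, with 686 of its cells, Rac2 was at 206 to 218 CPM and Cyba at 1269 to 1828 CPM, while Cybb was at 5.16 to 22.2 CPM, close to the 1.44 to 19.2 CPM of cluster 6 in the same mice. Oligodendrocytes of these libraries, which should lack Cybb, had 4.215 to 13.26 CPM of it. The Cybb ranges of clusters 30 and 6 overlapped that range. In cluster 9 of the same mice Rac2 was at 85.9 to 127 CPM, Cyba at 717 to 979 CPM and Cybb at 147 to 162 CPM. Cybb and Rac2 thus had opposite orders between clusters 30 and 9 in the operated knockouts, which is a description, since the clusters were made from the same cells.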
